A study of Mus musculus with 6 samples.

Results

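The glutathione, peroxide and Nrf2 defence genes are 42 genes, of 54532 listed, that encode the enzymes a cell uses to remove peroxides, superoxide and reactive lipid products, with the factor that controls many of them. They were chosen by name, with earlier results of these data known. Each was matched to its Ensembl identifier through GENCODE M21 on the mouse build GRCm38. All 42 passed the filter on low counts, which left 15751 genes for testing. RNA was measured by RNA-Seq in whole epididymal fat, the visceral depot beside the epididymis, from male C57BL/6J mice fed a normal diet (ND, 4.5% fat, 3 samples) or a high-fat diet (HFD, 60% fat, 3 samples). The mice were 4 weeks old when the diets started and ate them for 16 weeks, and the labels give no other treatment. The labels do not say whether a sample is a single mouse or a pool, so the p-values measure the spread between these samples.

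Glutathione is a small cysteine-containing tripeptide. Glutathione transferases attach it to reactive compounds such as the aldehydes left by oxidised lipids, and glutathione peroxidases use it to reduce hydrogen peroxide and lipid peroxides. Most peroxiredoxins do similar work with electrons from thioredoxin, and superoxide dismutases and catalase need neither. The transcription factor Nrf2 (gene Nfe2l2) is held in the cytoplasm and marked for breakdown by Keap1. When reactive compounds modify Keap1, Nrf2 enters the nucleus and raises genes for glutathione synthesis, the thioredoxin system and quinone reduction.

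Count totals lay between 16996896 and 18859320 per library, and a count of 3 corresponded to between 0.150 and 0.181 CPM, which covers counting error only. CPM is the count scaled to the library's total and edgeR's TMM factor, and it was used to compare samples within a gene. The deposited FPKM values, which also divide by gene length, were used to compare levels between genes. The adipocyte markers Adipoq, Plin1 and Fabp4 were abundant in every library. The third ND library stood apart in epithelial markers, with a summed level of 11 epithelial markers of 306 CPM against 17.5 to 24.2 CPM in the other libraries. The summed level of 15 macrophage markers was 2155 to 2274 CPM in ND fat and 5262 to 11777 CPM in HFD fat, and that of 15 adipocyte markers was 53947 to 70127 CPM and 20218 to 51097 CPM. By the test used below 12 macrophage markers rose, as did 8 of 8 lipid-associated macrophage markers. Of the adipocyte markers 1 rose, 3 fell and 11 did not pass, and none of the 4 epithelial markers tested passed. Of all genes tested 9.85% rose and 6.04% fell. On ND the largest terms of the adipocyte sum were Car3, Cfd and Fabp4, with means of 17177, 13634 and 12431 CPM. On HFD their means were 7053, 1275 and 10495 CPM. Over the 15 adipocyte markers 12 log2 fold changes were negative and 3 positive. Csf1r, Adgre1 and C1qa were detected in every library, and none of the 15 macrophage markers was at 0. In whole tissue, fewer cells of a type and less RNA per cell cannot be told apart, and the part of these shifts in the results was not tested.

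Between the diets 10 of the 42 genes differed at an adjusted p under 0.05 over all genes tested, in edgeR's quasi-likelihood model. Higher on HFD were 2 of the 42 (4.76%), Gstm1 and Srxn1, where 9.85% of all genes tested were higher. Lower on HFD were 8 of the 42 (19%), namely Gsta3, Gsta4, Gstt1, Gstt3, Mgst2, Gpx3, Gpx8 and Prdx3, where 6.04% of all genes were lower. In 23 of the 42 the diets did not overlap, a share of 54.8% beside 40.9% of all genes tested. HFD lay above ND in 7 of the 42 and below it in 16, beside 21.7% and 19.1% of all genes tested. The median log2 fold change of the 42 was -0.24, and that of all genes tested was 0.01. The 32 other genes had adjusted p-values from 0.0584 to 0.936.

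These counts depended on single libraries. Without the first HFD library 0 of the 42 passed in either direction at an adjusted p of 0.05, where 2.35% of all genes were higher and 0.58% lower, and at an unadjusted p under 0.05 there were 6 higher and 12 lower of the 42. Gpx3 and Gpx8 passed as lower in each of the 5 other fits. The counts of lower genes were 2 without the first ND library (0.956% of all genes), 3 without the second (1.32%) and 7 without the third (2.46%), with 0 higher in each of these fits beside 2.08%, 2.31% and 3.78% of all genes. Without the second HFD library 6 were higher and 15 lower, beside 14.5% and 9.65% of all genes, and without the third 3 were higher and 9 lower, beside 8.33% and 4.58%. With DESeq2's Wald test, which gave no adjusted p for Gstm7, 4 were higher and 14 were lower, where 11.2% and 8.81% of all genes tested were. With no filter on counts 1 was higher and 7 lower (5.03% and 2.54% of all genes). On log2 FPKM 1 was higher and 9 lower with a pseudocount of 1 (8.32% and 6.24%), 1 and 8 with a pseudocount of 0.1 (7.13% and 4.94%), and 1 and 4 without a filter (1.69% and 1.49%). With the replicate number as a block 1 was higher and 12 were lower (7.51% and 4.46%).

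**Figure D1:**
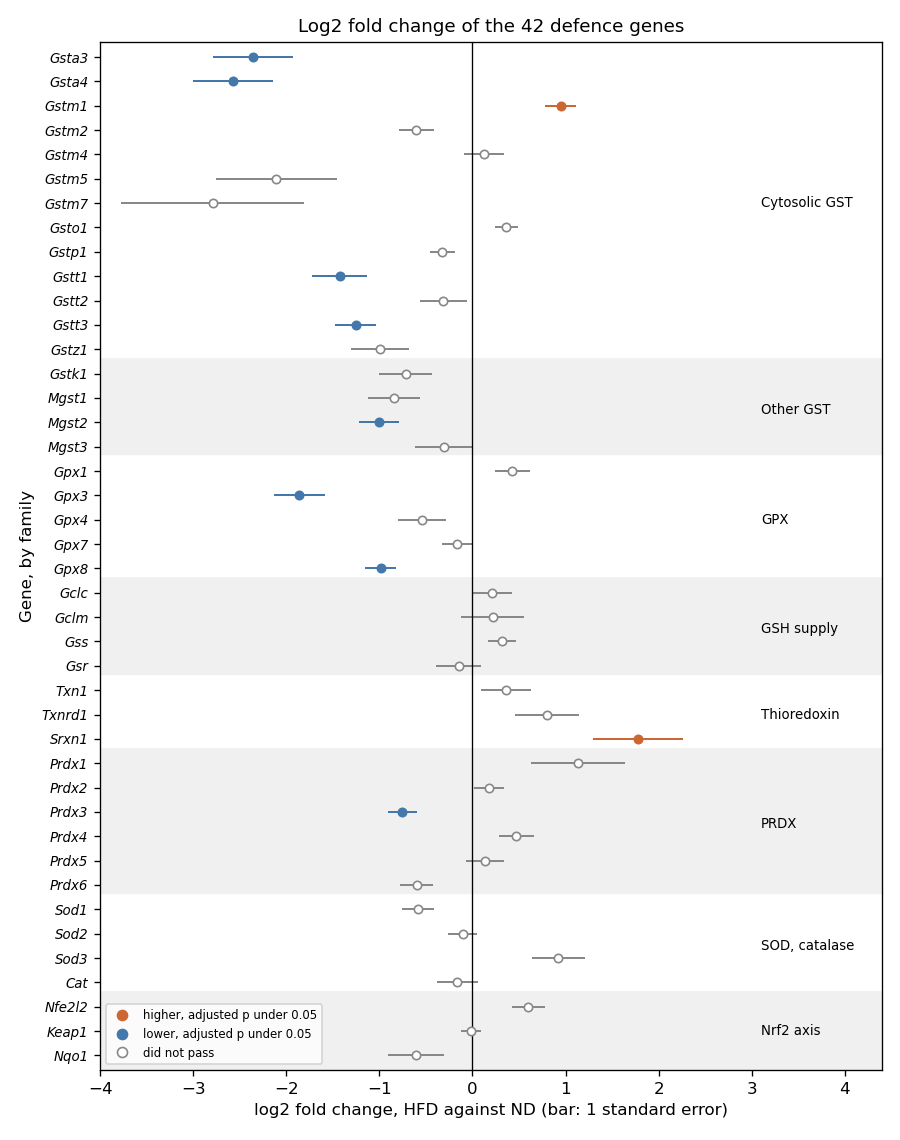
Log2 fold change of HFD against ND for each of the 42 defence genes, grouped by family, with bars of 1 standard error from edgeR's quasi-likelihood test (3 samples per diet). Filled points passed an adjusted p of 0.05, and the transferases and Gpx3 hold most of those to the left of 0, down to -2.57 for Gsta4.

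The levels of these genes spanned a wide range. Per length, Gpx1 led with 712 ± 53.4 FPKM on ND and 949 ± 145 FPKM on HFD (SD, n = 3 each), and Gstt3 was last with 4.72 ± 0.960 and 1.96 ± 0.368 FPKM. After Gpx1 the order by the mean of all 6 samples ran Gpx3, Gpx4, Mgst1, Gstm1, Prdx1, Cat, Txn1 and Mgst3. On ND the leading gene was Gpx3, at 852 ± 153 FPKM, and on HFD its mean of 233 ± 65.0 FPKM lay below those of Gpx1, Gstm1, Gpx4, Prdx1, Txn1, Mgst1 and Cat (SD, n = 3 each). On ND the gaps from Gpx3 to Gpx1, from Gpx1 to Gpx4 and from Gpx4 to Mgst1 were each smaller than the larger SD of the pair, so these neighbours were not set apart. On HFD Gpx1 stood apart by more than its SD, while each gap from Gstm1 down to Gpx3 was smaller than the larger SD of the pair. At the other end lay Gclc and Gclm, the subunits of the rate-limiting glutamate-cysteine ligase, with Nqo1, Gss, Mgst2 and Gstt2. The means of these genes were at most 12.2 FPKM on both diets.

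**Figure D2:**
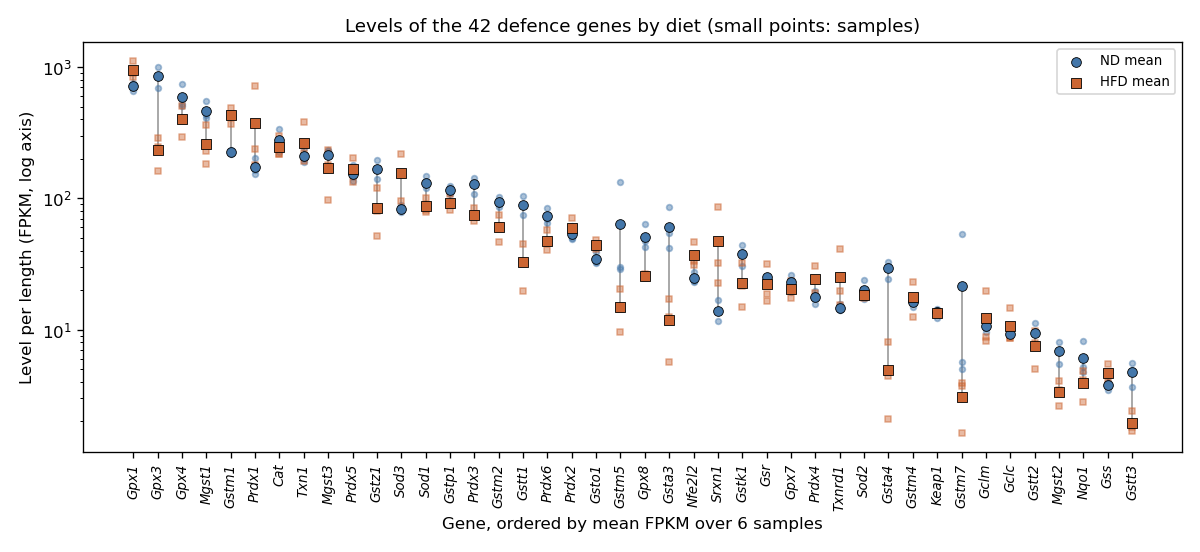
FPKM of each defence gene on a log axis, with the mean of each diet as a large symbol and the 3 samples per diet as small ones. Genes are ordered by their mean over the 6 samples, from Gpx1 to Gstt3, and the widest gap between diets among the abundant genes is that of Gpx3.

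Among the 13 cytosolic glutathione transferases, 4 fell and 1 rose, with a median log2 fold change of -0.99 over the family. Beside this family and those below, 6.04% of all genes tested fell and 9.85% rose, with a median of 0.01. Gsta4 (ENSMUSG00000032348, chromosome 9 of GRCm38 from 78182774 to 78209349), the transferase with a high rate on hydroxynonenal, an aldehyde from oxidised fatty acids, had 40.9, 37.8 and 30.8 CPM in the ND samples and 5.63, 10.2 and 2.65 CPM in the HFD samples. Every HFD value was below every ND value, and the log2 fold change was -2.57 (standard error, SE, 0.43 and adjusted p = 0.0124). Gsta3 (ENSMUSG00000025934, chromosome 1 from 21240589 to 21265661), of the same alpha class, had 231, 368 and 183 CPM in ND fat and 54.0, 73.7 and 24.7 CPM in HFD fat. It fell by 2.36 on the log2 scale (SE 0.43, adjusted p = 0.0160), again without overlap. For both genes the third HFD sample was the lowest and the second the highest of the HFD samples, which is also the order of the summed adipocyte markers there, and a part of adipocyte RNA in this was not tested. Both lost the call without the first ND, the second ND or the first HFD library. Gsta4 passed in all 9 fits with another tool, scaling, filter, unit or block, and Gsta3 in 7, missing with no filter on counts (adjusted p = 0.0549) and on unfiltered FPKM (0.0622).

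The theta class stands in a short stretch of chromosome 10. Gstt1 (ENSMUSG00000001663, from 75783813 to 75798584) had 155, 111 and 133 CPM in ND fat and 50.3, 68.5 and 29.9 CPM in HFD fat, a log2 fold change of -1.43 (SE 0.29, adjusted p = 0.0220). Its neighbour Gstt3 (ENSMUSG00000001665, from 75774115 to 75781414) had 20.9, 13.8 and 18.99 CPM in ND fat and 6.89, 9.09 and 6.51 CPM in HFD fat, a log2 fold change of -1.26 (SE 0.22, adjusted p = 0.0134). The diets did not overlap in either gene. Reads of Gstt3 cannot all be told from those of Gm20441, since 23.9% of the 100-base windows of its longest coding transcript also occur in transcripts of that gene. The third member, Gstt2 (from 75831114 to 75837424), overlapped between diets, at 31.0 to 46.1 CPM in ND fat and 20.96 to 39.99 CPM in HFD fat (log2 fold change -0.31, adjusted p = 0.426). Gstt1 kept its call in 2 of the 6 fits that left out a library and Gstt3 in 4.

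Gstm1 went the other way. This gene (ENSMUSG00000058135, chromosome 3 from 108012255 to 108017973), the most abundant transferase of the mu class here, had 315, 322 and 344 CPM in ND fat and 714, 642 and 537 CPM in HFD fat. All 3 HFD values were above the ND values, and the log2 fold change was 0.95 (SE 0.17, adjusted p = 0.0134). Its share of the summed FPKM of the 13 cytosolic transferases was 23.7% to 24.7% on ND and 47.7% to 57.6% on HFD. The summed level of the family was 933 ± 47.6 FPKM on ND and 806 ± 137 FPKM on HFD (SD, n = 3 each). The call was lost without any of the ND libraries and without the first HFD library, where the log2 fold change still lay between 0.82 and 1.04 over all 6 such fits. Of the windows of its transcript 7.73% are shared with other genes, Gstm3 and copies such as Gstm2-ps1 among them, and Gstm3 itself had at most 0.120 CPM in any library.

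The other mu genes of the same cluster did not pass. Gstm2 had 142, 170 and 151 CPM in ND fat and 102, 125 and 77.6 CPM in HFD fat (log2 fold change -0.60, adjusted p = 0.0663). The FPKM ratio of Gstm1 to Gstm2 was 2.16 to 2.59 in the ND samples and 5.86 to 7.97 in the HFD samples. Gstm4 overlapped between the diets (0.12, adjusted p = 0.727). Gstm5 and Gstm7, described here after their values were seen, were high in the third ND sample alone. Gstm5 had 36.2, 37.6 and 168 CPM in ND fat and 18.1, 25.9 and 12.3 CPM in HFD fat, and Gstm7 had 7.83, 8.82 and 85.4 CPM in ND fat and 5.96, 6.20 and 2.59 CPM in HFD fat. That library is the one with the epithelial markers, and the part of epithelium in these levels was not tested. Their log2 fold changes of -2.11 and -2.79 (adjusted p = 0.0663 and 0.0940) became -1.004 and -0.787 without that library (adjusted p = 0.0961 and 0.249).

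The remaining cytosolic transferases also did not pass. Gstz1, which also works as maleylacetoacetate isomerase in tyrosine breakdown, had 847, 984 and 706 CPM in ND fat and 406, 608 and 261 CPM in HFD fat (log2 fold change -0.99, adjusted p = 0.0732). Gsto1 lay slightly above the ND values (0.37, adjusted p = 0.0877) and Gstp1 slightly below (-0.32, adjusted p = 0.139), each without overlap. For Gstp1, 52.8% of the windows are shared with Gstp2 or a pseudogene, so its value is uncertain.

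Of the 4 transferases of mitochondria, peroxisomes and membranes, all with negative log2 fold changes, 1 fell. Mgst2 (ENSMUSG00000074604, chromosome 3 from 51660360 to 51682677), a membrane enzyme that can also form leukotriene C, had 25.3, 29.5 and 20.1 CPM in ND fat and 12.7, 14.9 and 9.62 CPM in HFD fat. The diets did not overlap, and the log2 fold change was -1.01 (SE 0.21, adjusted p = 0.0234, passed in 3 of the 6 fits that left out a library). Mgst1, the abundant microsomal transferase, had 857, 1090 and 824 CPM in ND fat and 461, 719 and 367 CPM in HFD fat. It missed the threshold (log2 fold change -0.84, SE 0.28, adjusted p = 0.0791) although no HFD value reached the ND values. Gstk1 (-0.72, adjusted p = 0.124) and Mgst3 (-0.31, adjusted p = 0.514) overlapped between diets.

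Glutathione peroxidases differ in where they act and in their active site. Gpx1, Gpx3 and Gpx4 carry selenocysteine, while Gpx7 and Gpx8 carry cysteine and sit in the endoplasmic reticulum. Gpx3 (ENSMUSG00000018339, chromosome 11 from 54902453 to 54910377), the secreted plasma peroxidase, had 1771, 1228 and 1572 CPM in ND fat and 443, 524 and 294 CPM in HFD fat. This was 3.63-fold lower on HFD, a log2 fold change of -1.86 (SE 0.27, adjusted p = 0.00918), the lowest adjusted p among the 42 genes. It passed in every alternative but that without the first HFD library (adjusted p = 0.0514). Gpx8 (ENSMUSG00000021760, chromosome 13 from 113042753 to 113046410) had 43.8, 65.3 and 49.2 CPM in ND fat and 27.6, 25.8 and 26.4 CPM in HFD fat. Its 3 HFD values were close together, and the log2 fold change of -0.99 (SE 0.16, adjusted p = 0.0119) was lost only without the first HFD library (adjusted p = 0.0526).

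Neither intracellular selenium peroxidase passed. Gpx1, the main cytosolic and mitochondrial enzyme, had 1072, 1024 and 938 CPM in ND fat and 1197, 1290 and 1600 CPM in HFD fat, all above the ND values but not past the threshold (log2 fold change 0.43, SE 0.19, adjusted p = 0.160). The FPKM ratio of Gpx3 to Gpx1 was thus 0.953 to 1.33 in the ND samples and 0.146 to 0.323 in the HFD samples, and the share of Gpx3 in the summed FPKM of the 5 peroxidases was 30.7% to 42.5% and 10.1% to 16.7%. Gpx4, which reduces lipid peroxides in membranes and guards against ferroptosis, had 893, 1255 and 861 CPM in ND fat and 697, 861 and 504 CPM in HFD fat (-0.54, adjusted p = 0.184). Of its windows 48.4% are shared with copies such as Gpx4-ps2. Gpx7 overlapped between diets (-0.16, adjusted p = 0.524). Of the other peroxidase genes, Gpx2 and Gpx6 had 0 counts in every library and Gpx5, the epididymal peroxidase, had 1 count in all libraries together.

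**Figure D3:**
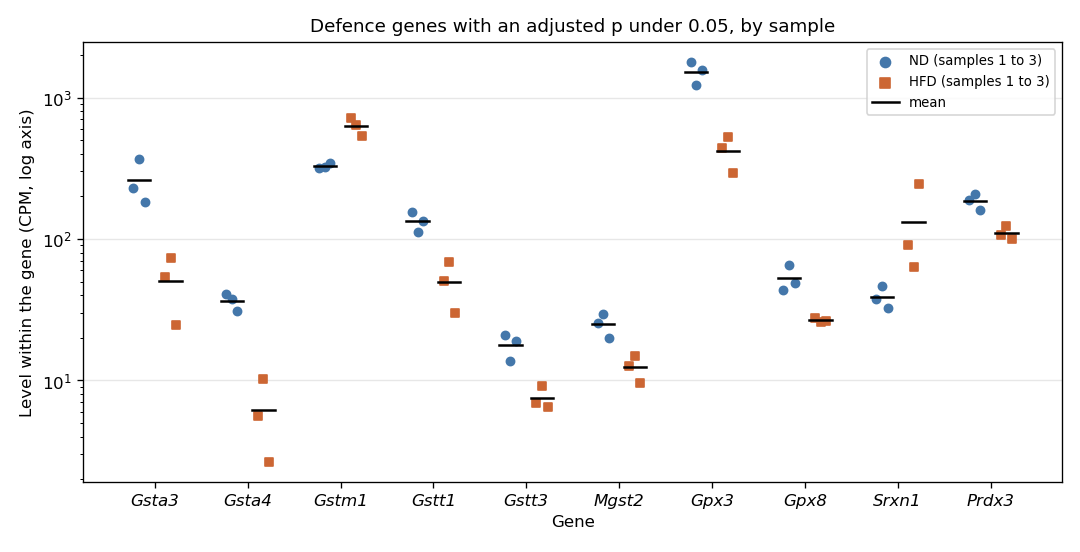
CPM in each sample, on a log axis, of the 10 defence genes with an adjusted p under 0.05, with ND as circles, HFD as squares and the mean of each diet as a bar. The diets do not overlap in any of the 10, and the third HFD sample is the lowest point in 7 of the 8 lower genes, Gpx8 being the exception.

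The genes that make and regenerate glutathione showed no call in either direction. Gss, glutathione synthetase, had 20.1, 22.8 and 23.3 CPM in ND fat and 23.6, 26.6 and 32.4 CPM in HFD fat (log2 fold change 0.32, SE 0.15, adjusted p = 0.187). Gsr, glutathione reductase, had 66.8, 69.6 and 67.0 CPM in ND fat and 51.2, 45.2 and 87.4 CPM in HFD fat, so that 2 HFD samples lay below the ND values and the third above. Its log2 fold change was -0.15 (adjusted p = 0.708) with all samples, and -0.51 without the third HFD sample (adjusted p = 0.0270). The catalytic and modifier subunits of glutamate-cysteine ligase, Gclc and Gclm, had the same shape, with 32.6, 32.3 and 54.8 CPM and 54.5, 50.8 and 124 CPM in the HFD samples beside 33.9 to 35.9 CPM and 59.1 to 73.2 CPM in ND fat. Their log2 fold changes turned from 0.21 and 0.22 to -0.11 and -0.33 without the third HFD sample (adjusted p = 0.572 and 0.137).

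Of the 3 genes of the thioredoxin system 1 rose. Srxn1 (ENSMUSG00000032802, chromosome 2 from 152105516 to 152111376), sulfiredoxin, which restores peroxiredoxins after overoxidation, had 37.4, 46.2 and 32.6 CPM in ND fat and 91.0, 63.5 and 244 CPM in HFD fat. Every HFD value exceeded the ND values, with a log2 fold change of 1.78 (SE 0.48, adjusted p = 0.0474). Without the third HFD sample it was 0.98 (adjusted p = 0.0234), and the call was lost without any of the ND samples or the first HFD sample (adjusted p up to 0.143). Of the 9 fits with another tool, scaling, filter, unit or block Srxn1 passed in 4, and the call was lost with no filter on counts (adjusted p = 0.167), on FPKM (0.0780 to 0.178) and with the replicate block (0.106), whereas Gstm1 passed in all 9. Txn1, thioredoxin itself, had 205, 248 and 197 CPM in ND fat and 231, 201 and 402 CPM in HFD fat (0.36, adjusted p = 0.391), and turned to -0.02 without the third HFD sample. Txnrd1, the selenocysteine enzyme that reduces thioredoxin, had 98.2 to 111 CPM in ND fat and 138, 109 and 289 CPM in HFD fat (0.80, adjusted p = 0.149).

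Of the 6 peroxiredoxins, 1 fell and none rose. Prdx3 (ENSMUSG00000024997, chromosome 19 from 60864051 to 60874556), the mitochondrial peroxiredoxin, had 189, 209 and 160.0 CPM in ND fat and 107, 124 and 99.7 CPM in HFD fat. No values overlapped, and the log2 fold change was -0.75 (SE 0.15, adjusted p = 0.0203, passed in 3 of the 6 fits that left out a library). Prdx1, the abundant cytosolic form, had 489, 606 and 463 CPM in ND fat and 714, 547 and 2164 CPM in HFD fat. The second HFD sample lay within the ND range and the third was far above it, so the mean of 1142 ± 889 CPM (SD, n = 3) did not differ from ND past the threshold (log2 fold change 1.14, SE 0.50, adjusted p = 0.160). Without the third HFD sample the log2 fold change was 0.26 (adjusted p = 0.426), and without the second it was 1.48 (adjusted p = 0.0488). Prdx6, which also has a phospholipase activity, lay below the ND values at 219, 272 and 193 CPM (-0.60, adjusted p = 0.0610), and it passed as lower in 4 of the 15 alternative fits. Prdx4, the form of the endoplasmic reticulum, differed by 0.47 (adjusted p = 0.130), and Prdx2 and Prdx5 had 0.18 and 0.13 (adjusted p = 0.479 and 0.674). Of the windows of Prdx2 12.8% are shared with the overlapping genes Junb and Rnaseh2a or the pseudogene Tdpx-ps1, and of those of Prdx5 26.7% with the overlapping Trmt112.

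None of the superoxide dismutases and catalase passed with all samples in edgeR's test. Sod1, the cytosolic copper-zinc enzyme, had 463, 574 and 507 CPM in ND fat and 321, 399 and 310.4 CPM in HFD fat, without overlap (log2 fold change -0.58, SE 0.17, adjusted p = 0.0584). It passed as lower in 4 of the 15 alternative fits, namely with DESeq2's Wald test (adjusted p = 0.00524), without TMM factors (0.0448), on FPKM with a pseudocount of 1 (0.0425) and without the second HFD sample (0.0261). Sod3, the secreted form that binds to the extracellular matrix, had 305, 324 and 294 CPM in ND fat and 578, 812 and 358 CPM in HFD fat. It was above the ND values in 3 of 3 HFD samples and missed the threshold (0.92, SE 0.29, adjusted p = 0.0694), and it passed without the third HFD sample (1.16, adjusted p = 0.00796) and with DESeq2's Wald test. The mitochondrial Sod2 had 171 to 234 CPM in ND fat and 172 to 194 CPM in HFD fat (-0.11, adjusted p = 0.666). Cat, the peroxisomal catalase, had 677, 872 and 590 CPM in ND fat and 569, 778 and 566 CPM in HFD fat, with overlap (-0.16, SE 0.22, adjusted p = 0.646).

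Nfe2l2 (ENSMUSG00000015839, chromosome 2 from 75675513 to 75704641) had 102, 86.1 and 89.4 CPM in ND fat and 127, 117 and 177 CPM in HFD fat. The HFD values were all above the ND values, but the log2 fold change of 0.60 (SE 0.18) missed the threshold (adjusted p = 0.0607), and without the third HFD sample it was 0.38 (adjusted p = 0.0894). It passed without the second HFD sample (0.72, adjusted p = 0.0264) and with DESeq2's Wald test (adjusted p = 0.0290), 2 of the 15 alternative fits. Keap1 differed little, with 66.3, 65.4 and 57.3 CPM in ND fat and 61.6, 62.5 and 63.0 CPM in HFD fat (-0.01, SE 0.11, adjusted p = 0.936). Nqo1, the quinone reductase often used as a marker of Nrf2 activity, was scarce and overlapped between diets, at 12.5, 7.25 and 8.05 CPM in ND fat and 4.32, 7.53 and 6.39 CPM in HFD fat (-0.61, SE 0.30, adjusted p = 0.198).

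The 3 HFD samples differed among themselves. The third HFD sample was the lowest of all 6 samples in 22 of the 42 genes and the highest in 12, shares of 52.4% and 28.6% beside 28.4% and 32.7% of all genes tested. The 12 were Gpx1, Gclc, Gclm, Gss, Gsr, Txn1, Txnrd1, Srxn1, Prdx1, Prdx2, Prdx4 and Nfe2l2. The 22 included 10 of the 13 cytosolic transferases, the 4 other transferases and Gpx3. Prdx1 was 3.43 times and Srxn1 3.16 times as high there as in the mean of the other HFD samples, while Gsta4 was at 0.335 of that mean. The same library had the highest summed macrophage markers, 11777 CPM against 6843 and 5262 CPM, the highest lipid-associated macrophage markers, 10315 CPM against 3798 and 2174 CPM, and the lowest adipocyte markers, 20218 CPM against 32353 and 51097 CPM. The part of cell composition in this order was not tested. Among the ND samples, the second was the highest of all 6 in 15 of the 42 genes and the lowest in 2. These shares were 35.7% and 4.76%, beside 17.5% and 19.3% of all genes tested. Of the 8 genes lower on HFD, Gsta3, Mgst2, Gpx8 and Prdx3 were highest there, and Gsta4, Gstt1, Gstt3 and Gpx3 in the first ND sample.

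**Figure D4:**
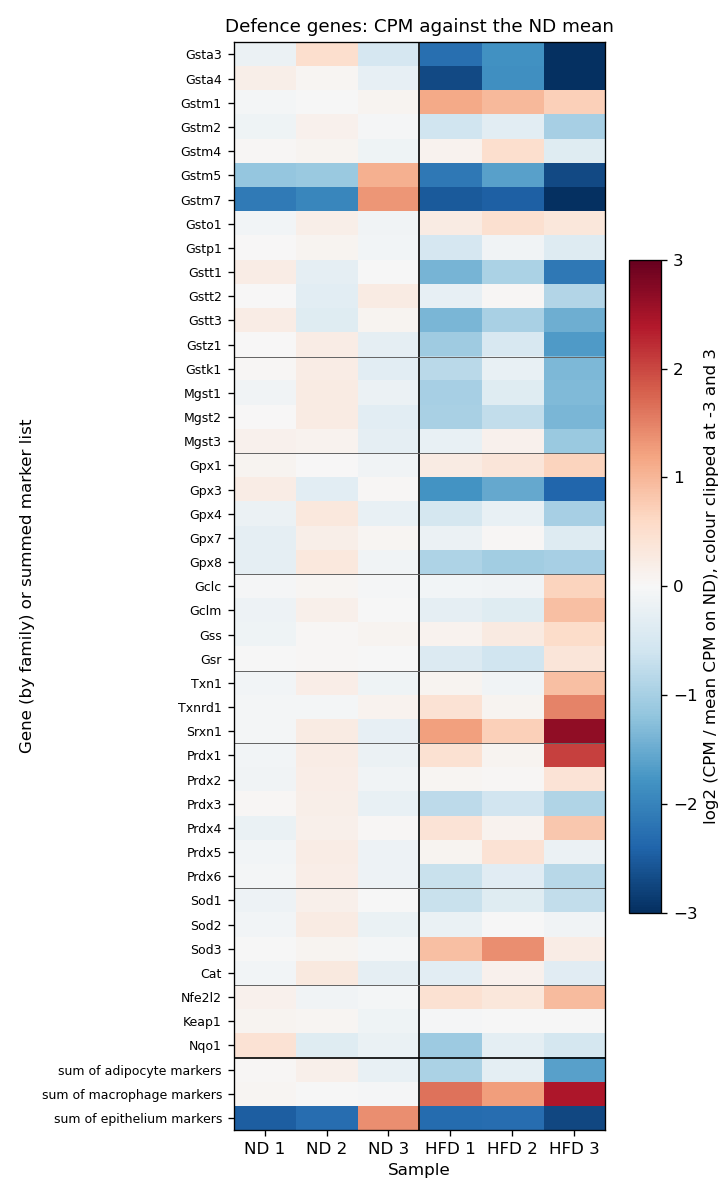
Log2 ratio of CPM to the ND mean for each defence gene (rows by family) and for 3 summed marker lists, in the 6 samples (columns). The third HFD column is the darkest in both directions, and the third ND column stands apart in Gstm5, Gstm7 and the epithelial markers.

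Nrf2 with a small Maf protein binds the antioxidant response element, whose core reads TGACNNNGC, and Bach1 competes for it. The core was searched on both strands of RefSeq promoters (GRCm38.p6, 250 bases before to 50 after each start), which were found for 36 of the 42 genes, the others being Gsta4, Gstt2, Gclc, Gsr, Prdx6 and Sod3. It occurred in 10 of the 36 (27.8%) and in 14% of all 27025 genes with a promoter in that table, and a match is a description of these letters only. Among those with a match were 1 of 2 genes that rose, 1 of 7 that fell and 8 of 27 that did not pass. Of the 12 genes highest in the third HFD sample 10 had a promoter in the table, and 5 of them (Gclm, Txnrd1, Srxn1, Prdx1 and Nfe2l2) held the core while Gpx1, Gss, Txn1, Prdx2 and Prdx4 did not. Of the 22 lowest there 19 had a promoter, and 5 of them held it. Both groups rest on the order of 1 library. The share with the core among all genes so ordered was not counted, so no difference between the groups is drawn. How many genes are printed from each group does not stand for the share of that group with the core. Prdx1, Txnrd1 and Gclm were picked as examples of the first group and Gsta3 of the second, each with 1 match before the start. Their 250 bases before the start are shown so that the context of the core can be compared, 5′ to 3′ on the gene's strand, with the core in capitals and reading on the opposite strand in all but Gsta3.
Prdx1: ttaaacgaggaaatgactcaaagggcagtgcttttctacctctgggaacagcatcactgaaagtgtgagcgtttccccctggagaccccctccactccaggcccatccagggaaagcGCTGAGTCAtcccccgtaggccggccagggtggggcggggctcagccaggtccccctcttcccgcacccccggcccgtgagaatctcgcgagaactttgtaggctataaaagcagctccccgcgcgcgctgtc
Txnrd1: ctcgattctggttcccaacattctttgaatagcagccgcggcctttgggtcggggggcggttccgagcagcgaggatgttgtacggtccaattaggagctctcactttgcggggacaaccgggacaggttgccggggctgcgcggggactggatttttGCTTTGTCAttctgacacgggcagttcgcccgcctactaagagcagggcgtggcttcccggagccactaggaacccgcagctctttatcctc
Gclm: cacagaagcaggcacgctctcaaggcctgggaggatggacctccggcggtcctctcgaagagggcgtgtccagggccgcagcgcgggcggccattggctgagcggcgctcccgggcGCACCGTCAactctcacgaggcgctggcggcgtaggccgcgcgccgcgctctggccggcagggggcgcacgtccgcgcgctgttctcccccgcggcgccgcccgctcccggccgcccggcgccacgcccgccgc
Gsta3: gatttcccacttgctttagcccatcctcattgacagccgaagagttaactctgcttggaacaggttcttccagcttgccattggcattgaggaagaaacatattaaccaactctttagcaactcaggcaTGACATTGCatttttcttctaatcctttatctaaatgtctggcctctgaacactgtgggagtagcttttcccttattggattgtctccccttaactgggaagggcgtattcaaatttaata

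The windows are chr4:116685349-116685598 for Prdx1, chr10:82858956-82859205 for Txnrd1, chr3:122245307-122245556 for Gclm and chr1:21240335-21240584 for Gsta3, all on the plus strand. Txnrd1 has 3 promoters in the table, of which 1 held the core. The match in Prdx1 read TGACTCAGC, 133 bases before the start, and that in Srxn1 read TGACCTAGC, 29 bases after it. The cores of Sod1 and Gstm5 both read TGACCACGC, those of Gstm7 and Txnrd1 TGACAAAGC, and those of Mgst1 and Nfe2l2 TGACCGTGC and TGACTCCGC. Gpx3, Gstm1 and Nqo1 had no match in these windows.

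Of 21 other genes known as Nrf2 targets 20 were tested, 5 rose and 1 fell, with a median log2 fold change of 0.44. Over all genes tested 9.85% rose and 6.04% fell, and the median was 0.01. Hmox1, haem oxygenase, had 48.6, 48.1 and 40.4 CPM in ND fat and 144, 84.4 and 508 CPM in HFD fat (log2 fold change 2.43, SE 0.63, adjusted p = 0.0414). Ephx1, the microsomal epoxide hydrolase, had 37.2 to 70.1 CPM in ND fat and 147, 161 and 144 CPM in HFD fat, even across the 3 samples (1.52, adjusted p = 0.00985). The aldo-keto reductase Akr1b8 (2.89, adjusted p = 0.0327), the ferritin light chain Ftl1 (1.48, adjusted p = 0.0387) and Ptgr1 (1.86, adjusted p = 0.0394) were each highest in the third HFD sample. Tkt, transketolase, fell by 1.94 on the log2 scale (adjusted p = 0.0394), with 2744 CPM in the second ND sample against 935 and 755 CPM in the others. Slc7a11, chosen after its values were seen, the cystine carrier that feeds glutathione synthesis, had 0.918, 0.116 and 0.300 CPM in ND fat and 2.02, 1.33 and 7.89 CPM in HFD fat and did not pass (adjusted p = 0.0619).

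Of 14 regulators and partners of Nrf2, 3 rose and none fell, where 9.85% and 6.04% of all genes tested did. Maff and Mafk, small Maf partners, went from 10.8 ± 0.112 to 28.9 ± 5.38 CPM and from 40.4 ± 1.48 to 61.6 ± 6.79 CPM (SD, n = 3 each), log2 fold changes of 1.42 and 0.61 (adjusted p = 0.00624 and 0.0186). Bach1, the repressor, had 35.8, 43.0 and 43.4 CPM in ND fat and 74.9, 57.0 and 111 CPM in HFD fat (0.99, adjusted p = 0.0348). Cul3 and Rbx1, the ligase subunits that act with Keap1, had -0.03 and 0.02 (adjusted p = 0.879 and 0.943).

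The genes around glutathione turnover and cysteine supply moved in both directions, with 4 of 16 tested higher and 3 lower. The shares of all genes tested were 9.85% and 6.04%. Anpep, an aminopeptidase of the cell surface, went from 30.4 ± 3.07 to 297 ± 182 CPM (SD, n = 3 each), with a log2 difference of 3.29 (adjusted p = 0.00789). Dpep2 (2.93, adjusted p = 0.0136) also rose from a very low level, with 3, 5 and 6 counts in ND fat against 35, 18 and 50 in HFD fat. More than 1 identifier carries the symbol Dpep2, and whether their reads can be told apart was not checked. Slc3a2, the heavy chain of the cystine carrier (0.63, adjusted p = 0.0263), and Cndp2 (1.33, adjusted p = 0.0471) rose too. Cth, which makes cysteine from cystathionine, fell from 16.8 ± 4.08 to 7.72 ± 2.14 CPM (SD, n = 3 each, adjusted p = 0.0294), and Chac2 and Oplah, which break glutathione down and recover its glutamate, fell by 0.81 and 0.92 on the log2 scale (adjusted p = 0.0357 and 0.0401). Ggt1, which starts glutathione breakdown outside the cell, had 32.7 CPM in the third ND library and at most 0.0546 CPM in any other, and was not tested.

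Of 17 other thioredoxin, glutaredoxin and methionine sulfoxide reductase genes, 3 fell and none rose. Beside this list and those that follow, 6.04% of all genes tested fell and 9.85% rose. Glrx3 had 202, 258 and 209 CPM in ND fat and 117, 151 and 121 CPM in HFD fat (log2 fold change -0.78, adjusted p = 0.0221), and Txnrd3 and the mitochondrial Glrx2 fell by 1.18 and 0.51 on the log2 scale (adjusted p = 0.0247 and 0.0380). Of 9 other glutathione transferase genes 4 were tested, and Gsto2 fell by 1.58 on the log2 scale (adjusted p = 0.0322). Among 10 genes for selenoprotein synthesis and selenium transport, Sephs2, the selenophosphate synthetase, had 72.0, 57.4 and 62.0 CPM in ND fat and 26.8, 35.8 and 31.3 CPM in HFD fat (-1.03, SE 0.15, adjusted p = 0.00918). No other gene of that list passed, Selenop included (0.29, adjusted p = 0.299). Of 12 aldehyde-removing enzymes 3 fell and 1 rose. The mitochondrial aldehyde dehydrogenase Aldh2 went from 1239 ± 159 to 560 ± 73.7 CPM (SD, n = 3 each), with a log2 difference of -1.14 (adjusted p = 0.0123). Akr7a5 and Park7 fell by 0.69 and 0.63 on the log2 scale (adjusted p = 0.0287 and 0.0299), and Akr1b3 rose by 0.88 (adjusted p = 0.0392).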

How the data were processed

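RNA of whole epididymal fat was sequenced in 3 ND and 3 HFD samples, with diet and number from the labels. The authors deposited raw counts and FPKM values per Ensembl gene. The methods name TopHat and Cufflinks on GRCm38, while the submitters' processing notes list HISAT2 2.0.5, featureCounts 1.5.0-p3 and a human build, so aligner and counter are uncertain. The counting of strand and of multi-mapping reads is not given in the sources used here. Of 54532 identifiers, 54495 were found in GENCODE M21.

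Counts were filtered with filterByExpr, scaled by TMM and tested with edgeR 4.0.16 in R 4.3.3 (glmQLFit, robust=TRUE) with diet as the only factor and Benjamini-Hochberg adjustment over 15751 genes, with 0.05 as the threshold. The SE was derived from the F statistic. Per-length levels are the authors' FPKM values. Alternatives were DESeq2 1.42.0, other scalings and filters, limma 3.58.1 on log2(FPKM + 1) or log2(FPKM + 0.1), each library left out and a replicate block. The edgeR and DESeq2 fits were also run on counts simulated from the fitted means and dispersions, with known changes. No outlying sample or shift of cell types was put into the simulated counts, and the outcome is not reported here.

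The genes and lists were chosen with earlier results of these data known. Values are given in every sample for genes past the threshold and, per family, for the gene with the highest mean FPKM and that with the lowest p. Up to 4 called genes of each other list were to be named, and more were added after their values were seen. The lists for mesothelium, endothelium, adipocyte progenitors, red blood cells and liver held no called gene, with summed levels on ND and HFD of 203 to 296 and 141 to 251, 1204 to 1492 and 687 to 1405, 2019 to 2399 and 2055 to 2732, 565 to 860 and 291 to 1036, and 12.2 to 19.7 and 0.979 to 7.89 CPM in turn.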

Additional observations from a re-analysis of the deposited data

How the results depend on the processing

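Among all genes, 1552 were higher and 952 lower on HFD, and among the 42 genes 2 and 8. With DESeq2 1617 of all genes were lower, and 4 and 14 of the 42 were higher and lower. On FPKM without a filter 484 and 426 of all genes were higher and lower, and 1 and 4 of the 42. In the 42, 1 was higher on filtered FPKM with either pseudocount, with no filter on counts and with the replicate block. The block left 1183 genes higher and 703 lower in all, and 12 lower of the 42. The other scalings and a fixed minimum of 10 counts kept each of the 4 counts within 1.5 times. Same-numbered samples come from different diets, and their deviations from the group means had correlations of -0.0858, -0.0556 and -0.00532. These values show no shared deviation by number, and they cannot show whether same-numbered samples were handled together. The causes were not tested. Without single samples the counts of all genes went from 337 to 2368 higher and from 94 to 1572 lower, and in the 42 from 0 to 6 and from 0 to 15.

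Sign changes were seen only in fits that left out 1 sample, for genes that had no call with all samples. The log2 fold changes ranged in those fits from -0.11 to 0.30 for Gstm4, -0.11 to 0.34 for Gclc, -0.33 to 0.45 for Gclm, -0.51 to 0.036 for Gsr, -0.022 to 0.55 for Txn1, -0.034 to 0.26 for Prdx5, -0.23 to 0.036 for Sod2, -0.33 to 0.012 for Cat and -0.11 to 0.022 for Keap1. Leaving out the third HFD sample turned Gclc, Gclm and Txn1, the second HFD sample Gstm4, Gsr and Prdx5, and the second ND sample Sod2, Cat and Keap1, the last also without the first. Over the 9 fits that kept all samples, Gpx3, Gpx8, Gsta4, Gstt3 and Gstm1 passed in 9, Gstt1, Mgst2 and Prdx3 in 8, Gsta3 in 7 and Srxn1 in 4. The number of samples, 3 per diet, limits the precision of every value.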
